A study of Mus musculus with 16 samples.

Results

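The genotype dependence of the phenobarbital (PB) response was measured in mouse liver, as the difference between the PB effect in wild type mice (WT) and the PB effect in mice without Gadd45b (KO). The quantity was (WT DEN + PB minus WT DEN) minus (KO DEN + PB minus KO DEN) on the log2 scale, and it is called the interaction below. All 16 of 16 arrays and all 4 groups of the series entered it. Of 41174 probes without controls, 24454 (59.4%) were tested, each of them clearly brighter than background (by the scanner software's own flag) throughout 1 or more of the groups. They held 13304 named genes, and each gene was read from its brightest tested probe.

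PB switches on the constitutive androstane receptor (CAR), a nuclear receptor of hepatocytes that drives genes of drug metabolism such as the Cyp2b family. Long exposure to PB after a carcinogen promotes liver tumours in mice. Gadd45b is a small stress-response protein that PB induces in liver through CAR, and it binds upstream kinases of the p38 and JNK pathways and CAR itself. A positive interaction can stand for a larger rise in WT, a larger fall in KO, or opposite movements, so the effect in each genotype is given beside it.

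All mice were male, and each received N-diethylnitrosamine (DEN), a carcinogen that is activated in hepatocytes, as 1 dose of 90 mg/kg when 5 weeks old. The WT DEN + PB and KO DEN + PB groups drank 0.5 g/l PB in water from week 7 on, and the WT DEN and KO DEN groups did not. Non-tumour liver was taken at 57 weeks, and each group held 4 mice with 1 array per mouse. WT mice were C57BL/6J, and KO mice carried a null allele in all cells in a line whose stock name includes a second strain, so genotype and strain background cannot be told apart. No group without DEN was part of the comparison. The Gadd45b probe passed the background flag in all 8 WT mice and in 0 of the 8 KO mice. The tissue label was checked with hepatocyte genes, and albumin (Alb) had a mean log2 level, with the array's 75th percentile set to 0, of 9.16 and 8.96 in the WT groups (DEN, then DEN + PB) and 9.13 and 9.12 in the KO groups. The hepatocyte regulator Hnf4a gave 4.2 and 4.05 in WT and 4.22 and 4.16 in KO. On an array, 58.25% to 67.73% of spots were well above background. All levels below are log2 signals on that scale, the number of arrays limits their precision, and p-values measure the spread between these mice. In whole tissue, fewer cells of a type and less RNA per cell cannot be told apart.

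The interaction passed the test for few probes. The threshold for a call was an adjusted p (limma, Benjamini-Hochberg over the 24454 probes) under 0.05 with a size of 1.5-fold or more. Called probes numbered 2 (0.00818% of those tested), and 1474 probes (6.03%) had an unadjusted p under 0.05. No named gene was called (0 of 13304, 0%), while 551 genes (4.14%) had an unadjusted p under 0.05 with the more positive effect in WT and 330 (2.48%) with the more positive effect in KO. The smallest adjusted p of a gene was 0.162, and estimated array weights gave 4 called genes in place of 0. Without the array KO DEN + PB 1 there were 4 called genes, without KO DEN 3 there were 3, and without WT DEN 3 or WT DEN + PB 4 there were 2. The middle part of the distribution was narrow: the interaction lay between -0.22 and 0.18 from the 25th to the 75th percentile, with a median of -0.044, and 3.44% of genes had a size of 1 or more. The median standard error (SE) was 0.277 for the interaction against 0.196 for the PB effect in 1 genotype. On simulated data of the same size, the fit recovered 24% of interactions with a log2 size of 1, 80% of those of size 2 and 98% of those of size 3. Those data had independent normal noise and 200 probes with a planted interaction, which eases the adjusted threshold. The rates are therefore no estimate of what was missed here. In the measured data, interactions as large as -4.03 (Dbp) and -3.01 (Serpinb1c) were not called.

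In WT, 87 genes (0.654%) rose and 11 (0.0827%) fell with PB, and in KO 167 (1.26%) rose and 116 (0.872%) fell. The effects in WT and KO share no arrays. Of these genes, 63 (0.474% of those tested) were called in both genotypes in the same direction and 0 (0%) in opposite directions by limma. An unadjusted p under 0.05 was found in 1105 genes (8.31%) in WT and 1765 (13.3%) in KO. Among genes past that looser threshold in both, 353 (2.65%) moved the same way and 34 (0.256%) opposite ways. The plot of the PB effect in WT against KO shows where these genes lie.

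**Figure D1:**
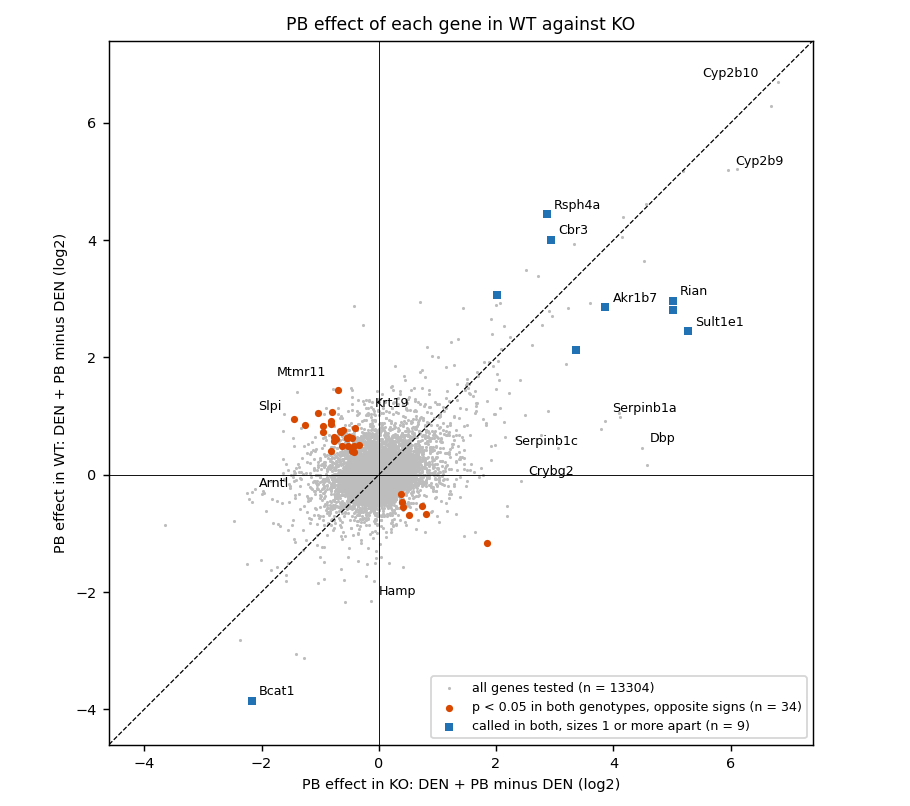
PB effect (DEN + PB minus DEN, log2) of each of 13304 genes in WT (vertical axis) against KO (horizontal axis), with the dashed line where both are equal. The 34 genes with opposite signs (round points) lie close to the origin, mostly with positive WT and negative KO values, and the 9 genes called in both with sizes 1 or more apart (squares) lie far from it on both sides of the line.

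The 10 genes with the smallest interaction p in each direction, among genes well above background on all 16 arrays, had adjusted p from 0.162 to 0.213. They were chosen by that p on these arrays, so their values are a description. The alternative called normexp below corrects the background, adds 50 units to each signal and then applies quantile normalization. After it, 10 of the 20 interactions were smaller by over 1.5 times. Krt19, a keratin of bile duct cells, rose in WT. Its level was -3.37, -3.18, -2.75 and -2.47 on the WT DEN arrays and -1.96, -1.58, -1.57 and -1.58 on the WT DEN + PB arrays, against -2.3, -2.18, -2.76 and -2.32 in KO DEN and -2.65, -2.66, -2.67 and -2.44 in KO DEN + PB. All 4 WT DEN + PB arrays lay above the other 12. The PB effect was 1.27 ± 0.19 (SE, adjusted p = 0.00208, limma) in WT and -0.22 ± 0.19 (adjusted p = 0.767) in KO, which gave an interaction of 1.48 ± 0.27 (95% interval 0.91 to 2.06, adjusted p = 0.162). After normexp it was 0.49, outside that interval.

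Syt7, a calcium sensor of membrane fusion, had the same form. It read -2.59, -2.16, -2.14 and -2.36 in WT DEN, -1.6, -1.43, -1.46 and -1.08 in WT DEN + PB, -1.58, -1.64, -2.02 and -2 in KO DEN, and -1.96, -2.24, -2.3 and -1.91 in KO DEN + PB. The WT groups did not overlap and the KO groups did, and Syt7 rose by 0.92 ± 0.17 (adjusted p = 0.0112, limma) in WT with -0.29 ± 0.17 in KO. Its interaction was 1.21, and 0.44 after normexp. Mtmr11, a member of the myotubularin family, gave 1.44 ± 0.32 in WT (adjusted p = 0.0572) and -0.7 ± 0.32 in KO (adjusted p = 0.405). Without the array KO DEN 3 its interaction of 2.14 ± 0.46 became 2.48 and was called, and after normexp it was 0.66.

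Other genes of this direction owed it to a fall in KO. Rnf144a, which encodes a ubiquitin ligase, read -0.74, -0.99, -0.79 and -1.29 in KO DEN and -1.94, -2.53, -2.4 and -2.71 in KO DEN + PB, and it lay between -1.95 and -1.27 on all 8 WT arrays. It fell in KO (-1.44 ± 0.19, adjusted p = 0.000395, limma), with -0.1 ± 0.19 in WT, and its interaction of 1.34 was 0.62 after normexp. Ppp1r10, a nuclear subunit of protein phosphatase 1, fell in KO (-1.03 ± 0.16, adjusted p = 0.0023) from 2.3, 2.07, 2.76 and 2.36 to 1.38, 1.47, 1.18 and 1.35, and all 8 KO values lay above the 8 WT values, which ran from 0.37 to 0.94. A dimmer probe of Ppp1r10 had the same signs, with an interaction p of 0.213. Slc41a2, a magnesium transporter, fell in KO too (-1.62 ± 0.23, adjusted p = 0.000965), with -0.093 in WT. In these 3 genes KO DEN held the highest mean of the 4 groups. KO DEN was above WT DEN by 1.79 in Ppp1r10 and by 1.39 in Slc41a2, both called, where 367 of all genes (2.76%) were called between KO DEN and WT DEN.

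Slpi, a secreted protease inhibitor, and Mthfd1l, a mitochondrial enzyme of one-carbon metabolism, had opposite signs. Slpi read -0.97, -1.71, -0.95 and -1.51 in WT DEN and -0.74, 0.4, -0.77 and -0.24 in WT DEN + PB, so the WT groups did not overlap. In KO it read -0.098, 0.89, 1.26 and 0.84 without PB and -0.012, -1.3, -0.66 and -0.93 with it, and the highest value with PB lay just above the lowest without. It fell in KO (-1.45 ± 0.33, adjusted p = 0.0348, limma), and the value in WT was 0.95 ± 0.33 (adjusted p = 0.388). The interaction of 2.4 ± 0.47 was 2.8 and called in the series table without scaling. Mthfd1l fell in KO (-1.25 ± 0.3, adjusted p = 0.0425) with 0.85 ± 0.3 in WT, an interaction of 2.1 ± 0.42 that was 0.99 after normexp.

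Among the genes with the more positive effect in KO, the serpins of the Serpinb1 family stood together. Serpinb1a encodes an inhibitor of neutrophil proteases, and Serpinb1b and Serpinb1c are its near neighbours in sequence, so signal shared between their probes was not separated here. Serpinb1a read 3.25, 2.53, 2.45 and 2.04 in WT DEN, 3.16, 2.82, 3.89 and 4.08 in WT DEN + PB, 0.65, 0.069, 1.59 and -0.42 in KO DEN, and 4.81, 4.24, 4.02 and 4.25 in KO DEN + PB. KO DEN lay below every other array, and the KO DEN + PB arrays lay above all others except that the highest WT DEN + PB array passed the lowest of them. Serpinb1a rose in KO by 3.86 ± 0.38 (adjusted p = 2.96e-05, limma), with 0.92 ± 0.38 in WT (adjusted p = 0.578), and its interaction was -2.94 ± 0.54. Serpinb1c rose in KO by 3.79 ± 0.37 with 0.78 ± 0.37 in WT and had the smallest unadjusted interaction p of all genes, 3.16e-05 (limma). A second probe of Serpinb1c, above background on 1 KO DEN array, gave 2.97 in KO and 1.08 in WT, an interaction of -1.89. Serpinb1b rose in KO by 4.12 ± 0.49 with 0.98 ± 0.49 in WT. Under DEN alone, the difference KO minus WT was -2.1 in Serpinb1a and -2.23 in Serpinb1c, both called. Without KO DEN 3 the interaction was called in Serpinb1a (-3.31) and Serpinb1c (-3.35), and without WT DEN + PB 4 in Serpinb1c (-3.3). After normexp, Serpinb1a gave -2.58 and Serpinb1c -1.49 against -3.01.

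Gpcpd1, an enzyme that splits glycerophosphocholine, and Crybg2, a crystallin-domain protein, had the same form. Gpcpd1 read 2.03, 2.13, 2.51 and 1.67 in WT DEN and 2.16, 1.87, 2.66 and 2.66 in WT DEN + PB, which overlapped. In KO it read 1.33, 1.22, 1.36 and 0.45 under DEN and 3.12, 2.89, 3.22 and 2.78 under DEN + PB, below and above every WT array. It rose in KO by 1.92 ± 0.24 (adjusted p = 0.000256, limma) with 0.25 ± 0.24 in WT, and both of its other probes gave the same signs, with interactions of -1.69 and -1.56. Crybg2 rose in KO by 2.42 ± 0.36 with -0.1 ± 0.36 in WT. Its interaction of -2.52 ± 0.51 became -2.93 and was called without WT DEN + PB 4, and it was -1.01 after normexp.

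Tedc2, which encodes a part of the tubulin complex of centrioles, and Sntg2, a syntrophin, differed on the WT side. Tedc2 read 2.66, 2.57, 2.34 and 2.51 in WT DEN and 1.78, 1.85, 1.91 and 1.8 in WT DEN + PB, against 2.41, 2.31, 2.47 and 2.55 in KO DEN and 2.43, 2.95, 3.13 and 3.26 in KO DEN + PB. All 4 WT DEN + PB arrays were the lowest of the 16. The effect was -0.69 ± 0.16 (adjusted p = 0.0731, limma) in WT and 0.51 ± 0.16 (adjusted p = 0.143) in KO, and the interaction of -1.19 ± 0.23 became -1.36 and was called without KO DEN + PB 1. Sntg2 fell in WT (-0.93 ± 0.17, adjusted p = 0.0118) with 0.21 ± 0.17 in KO, an interaction of -1.14 that was -0.73 after normexp.

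**Figure D2:**
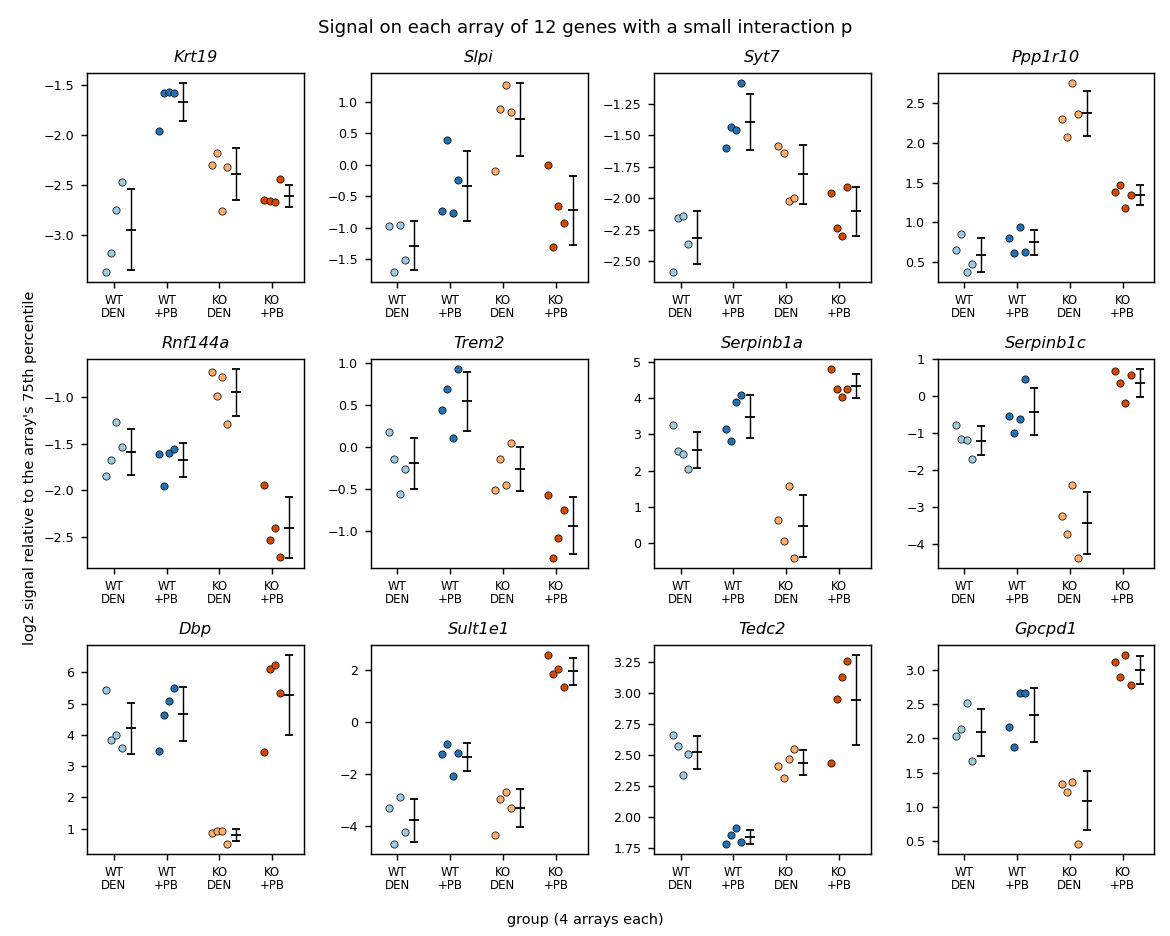
Level of 12 genes on each array (vertical axes, log2 signal with the array's 75th percentile at 0), by group (4 arrays each), with the group mean and SD as bars. Krt19 and Syt7 are highest in WT DEN + PB, Ppp1r10 and Slpi are highest in KO DEN, and Serpinb1a, Serpinb1c, Dbp and Gpcpd1 are lowest in KO DEN.

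Clock genes were among the largest interactions. The circadian clock is a feedback loop in which Arntl and its partners Clock and Npas2 bind E-box motifs and switch on Per, Cry, Nr1d1 and Dbp genes, whose products then act back on the loop, so that the 2 arms peak at different hours of the day. Of 22 clock genes 20 were tested. In WT, 0 were called by limma with PB. In KO, 5 rose (Dbp, Nr1d1, Nr1d2, Tef and Ciart) and 4 fell (Arntl, Npas2, Cry1 and Lonrf3), where 1.26% and 0.872% of all genes did. The interaction had an unadjusted p under 0.05 in 4 members with the positive sign and 5 with the negative sign, which is 20% and 25% of the members against 4.14% and 2.48% of all genes.

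Promoters of 4 of these genes are shown because Ciart, Dbp and Tef rose and Cry1 fell in KO, and the motif that Arntl and its partners bind is not in all of the windows. Each is the 250 bases before the transcription start in RefSeq GRCm38.p6, 5′ to 3′ on the gene's strand, with the E-box CACGTG in capitals. The regions are chr3:95882229-95882478 on the minus strand for Ciart, chr10:85185055-85185304 on the minus strand for Cry1, chr7:45704997-45705246 on the plus strand for Dbp and chr15:81802423-81802672 on the plus strand for Tef, the first of 2 listed starts.
Ciart: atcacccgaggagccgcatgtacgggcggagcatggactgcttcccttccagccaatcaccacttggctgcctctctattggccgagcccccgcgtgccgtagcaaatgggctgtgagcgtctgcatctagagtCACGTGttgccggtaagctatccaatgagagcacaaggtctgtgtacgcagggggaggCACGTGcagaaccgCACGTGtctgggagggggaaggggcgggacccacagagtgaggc
Cry1: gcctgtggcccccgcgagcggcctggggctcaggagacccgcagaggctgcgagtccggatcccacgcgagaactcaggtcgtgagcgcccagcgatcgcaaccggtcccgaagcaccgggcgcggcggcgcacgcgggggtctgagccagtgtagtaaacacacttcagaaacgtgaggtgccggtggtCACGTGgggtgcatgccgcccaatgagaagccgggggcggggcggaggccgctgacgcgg
Dbp: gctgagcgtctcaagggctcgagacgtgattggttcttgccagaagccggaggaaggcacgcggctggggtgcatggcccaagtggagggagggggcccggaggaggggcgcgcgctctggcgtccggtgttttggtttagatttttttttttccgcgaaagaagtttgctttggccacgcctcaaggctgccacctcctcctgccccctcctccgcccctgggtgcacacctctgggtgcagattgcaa
Tef: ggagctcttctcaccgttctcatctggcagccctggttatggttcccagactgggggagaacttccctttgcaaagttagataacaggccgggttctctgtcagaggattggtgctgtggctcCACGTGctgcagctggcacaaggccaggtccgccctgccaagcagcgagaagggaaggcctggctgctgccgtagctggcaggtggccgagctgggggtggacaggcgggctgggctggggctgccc
CACGTG reads the same on both strands, and 6.05% of 27025 promoters of this length held it. Of 17 clock promoters with a sequence, 5 (29.4%) held it, namely Ciart with 3 copies and Cry1, Lonrf3, Per1 and Tef. The half-site AGGTCA of nuclear receptors such as Nr1d1, searched on both strands, was in 13.8% of all promoters and in 3 of the 17 (17.6%), and neither motif was in the Dbp window.

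Dbp, a transcription factor that follows the clock closely, read 5.42, 3.82, 4 and 3.58 in WT DEN, 3.47, 4.63, 5.07 and 5.49 in WT DEN + PB, 0.85, 0.91, 0.92 and 0.49 in KO DEN, and 3.45, 6.12, 6.22 and 5.33 in KO DEN + PB. The 4 KO DEN arrays lay below all others and close together, and the other 3 groups overlapped. Dbp rose in KO by 4.49 ± 0.55 (adjusted p = 0.000227, limma) with 0.46 ± 0.55 in WT, and its interaction was -4.03 ± 0.78 (95% interval -5.68 to -2.38). Without KO DEN + PB 1, the lowest array of its group, the interaction became -4.64 and was called. Nr1d1, a repressor of Arntl, read -0.52, -0.26, -0.44 and -0.39 in KO DEN and between 0.56 and 1.99 on the other 12 arrays. It rose in KO by 1.78 ± 0.27 with -0.0081 ± 0.27 in WT.

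Arntl, of the activating arm, had the opposite order. Arntl read 0.16, 0.82, 0.9 and 1.27 in WT DEN, 1.17, 0.68, 0.034 and 0.078 in WT DEN + PB, 1.41, 0.88, 1.55 and 1.23 in KO DEN, and 0.73, -1.58, -1.67 and -1.1 in KO DEN + PB. KO DEN held the highest mean, and 3 of the 4 KO DEN + PB arrays were the lowest, with KO DEN + PB 1 among the WT arrays. Arntl fell in KO (-2.17 ± 0.43, adjusted p = 0.0131, limma), as did Cry1 (-1.43 ± 0.25) and Lonrf3 (-1.73 ± 0.27). Cry1 is among the genes that Arntl and its partners switch on, so the falls and rises did not split cleanly by arm. Npas2 was not above background in KO DEN + PB, and it was at least 1.62-fold lower there than in KO DEN, a bound of the kind explained below for Rsph4a. KO DEN + PB 1 also stood nearest to KO DEN in Dbp, Tef and Ciart. Between KO DEN and WT DEN, Dbp (-3.41) and Nr1d1 (-1.66) were called. The hour at which each liver was taken is not given in the sources used here, and its part in these values was not tested.

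**Figure D3:**
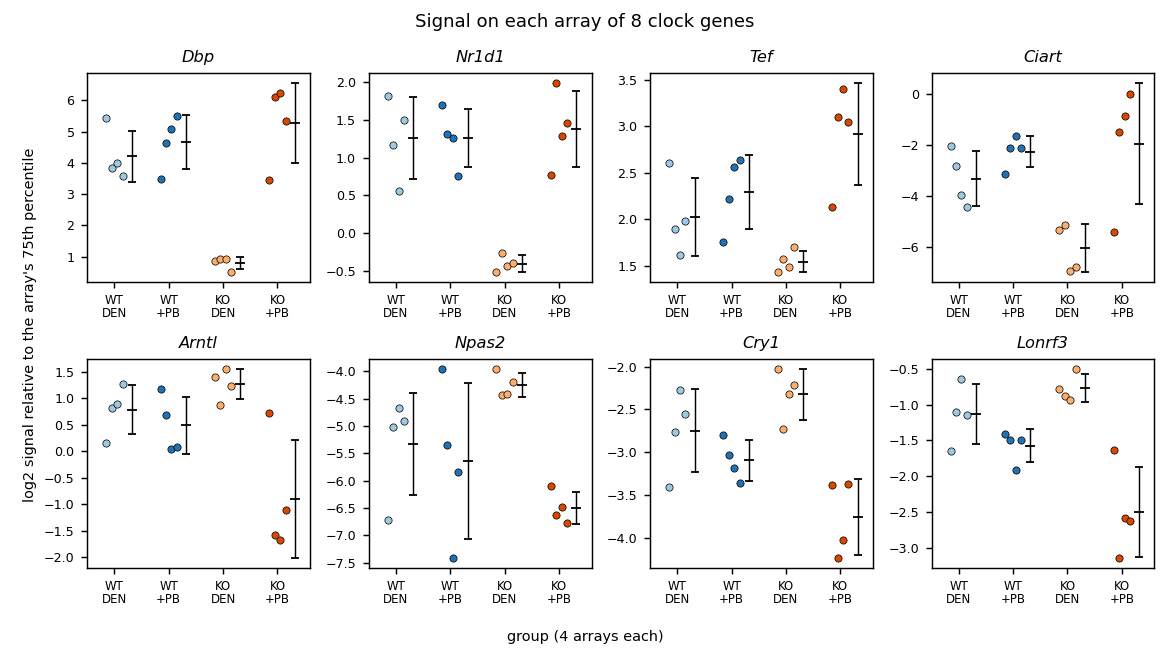
Level of 8 clock genes on each array (vertical axes, log2 signal with the array's 75th percentile at 0), by group (4 arrays each), with the group mean and SD as bars. On average KO DEN is lowest in Dbp, Nr1d1, Tef and Ciart, and KO DEN + PB is lowest in Arntl, Npas2, Cry1 and Lonrf3.

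The CAR and PB response list asked whether the direct targets of PB differed in size. Of 43 genes 40 were tested, 18 rose in WT and 23 in KO (0.654% and 1.26% of all genes), and none fell. The median effect was 0.71 in WT and 0.97 in KO, against -0.022 and 0.011 over all genes. The interaction had an unadjusted p under 0.05 and a negative sign in 7 members (17.5%, against 2.48% of all genes) and a positive sign in 1. The median interaction was -0.22, and this sign was not kept: it was 0.018 after quantile normalization, 0.031 after normexp background correction and 0.18 in the series table without scaling. The normexp setting ends with quantile normalization, so it is no separate check on that step. For the Cyp2b genes, the classical CAR targets, the effects of the brightest probes were large in both genotypes. Cyp2b10 rose by 6.69 ± 0.62 in WT and 6.8 ± 0.62 in KO, an interaction of -0.11 with a 95% interval of -1.96 to 1.74, and Cyp2b9 by 5.19 ± 0.43 and 5.95 ± 0.43, with an interval of -2.05 to 0.52. Cyp2b13 rose by 6.28 ± 0.52 and 6.69 ± 0.52, but its dimmer probe, above background on 8 WT arrays and 1 KO array, gave 6.23 in WT and 2.11 in KO (adjusted p = 0.00672 and 0.458, limma), with an interaction of the opposite sign (4.13, unadjusted p = 0.0145). The intervals of the brightest probes leave room for differences of over 2-fold, and the probes of this family may share signal.

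Sult1e1, the estrogen sulfotransferase, rose in both genotypes with the largest unequal size of the list. It read -3.3, -4.71, -2.9 and -4.23 in WT DEN and -1.23, -0.83, -2.09 and -1.2 in WT DEN + PB. In KO it read -4.34, -2.95, -2.68 and -3.32 under DEN and 2.59, 1.83, 2.03 and 1.34 under DEN + PB. The groups under DEN overlapped, and every KO DEN + PB array lay above every WT DEN + PB array. The rise was 2.45 ± 0.42 in WT (adjusted p = 0.00672, limma) and 5.27 ± 0.42 in KO (adjusted p = 2.08e-06), and the interaction of -2.82 ± 0.59 (adjusted p = 0.185) was -2.25 and called after normexp.

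Akr1b7, an aldo-keto reductase, rose from -3.48, -4.31, -3.51 and -4.29 to -1.26, -0.98, -0.97 and -0.95 in WT. In KO it rose from -3.59, -3.08, -2.95 and -3.06 to 1.06, 0.46, 0.4 and 0.86, so the DEN + PB groups of the genotypes did not overlap. Its interaction of -1.01 ± 0.32 (adjusted p = 0.485, limma) was called after normexp (-1.04). The transporter Slco1a4 rose in KO by 1.19 ± 0.25 (adjusted p = 0.0209) with 0.099 ± 0.25 in WT, an interaction of -1.09 ± 0.36. In the other direction Abcc4, an efflux pump, rose by 3.49 ± 0.26 in WT and 2.51 ± 0.26 in KO, an interaction of 0.98 ± 0.37. Its other probe gave 3.77 and 2.97.

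In all, 9 genes (0.0676% of those tested) were called in both genotypes in the same direction with log2 sizes 1 or more apart. Among those above background on some arrays of every group, the fitted rise was larger in WT for Cbr3 and Ttc39a and larger in KO for Sult1e1, Akr1b7 and 1810053B23Rik. In Cbr3 and Ttc39a the interaction changed sign between the slides with all 4 groups (-0.8 and 1.07, and 0.29 and -0.55). Rsph4a, Rian, Nebl and Bcat1 were not above background on any array of at least 1 group, so the sizes of their changes give no order between genotypes. Cbr3, a carbonyl reductase, rose by 4.01 ± 0.41 in WT and 2.94 ± 0.41 in KO, and the interval of the difference included 0 at an interaction p of 0.0837 (limma). Rsph4a, a protein of motile cilia, was above background on none of the DEN arrays and on all of the DEN + PB arrays, and it was at least 5.19-fold higher after PB in WT and at least 2.79-fold higher in KO. Such bounds set the brighter group's mean against the dimmest signal that passed as well above background. Rian, a noncoding RNA of the imprinted cluster that also holds Meg3, was above background on 0 of 8 arrays under DEN and was at least 1.82-fold higher after PB in WT and at least 9.81-fold higher in KO. Nebl was above background on no KO DEN array and was at least 2.06-fold higher in KO. Bcat1, an enzyme of branched-chain amino acid breakdown, was at least 3.68-fold lower in WT and at least 1.16-fold lower in KO after PB, with 0 of 8 arrays above background under DEN + PB.

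Of the 34 genes with opposite signs, 27 (0.203% of those tested) were higher after PB in WT and lower in KO, and 7 (0.0526%) the reverse. The first count was 17 when arrays were scaled to their median and 53 in the series table without scaling, so the split of the directions depended on scaling. Leaving out WT DEN 3 gave 63 opposed genes, and leaving out WT DEN 1 gave 22. Trem2, a lipid-sensing receptor of macrophages, read 0.18, -0.14, -0.56 and -0.27 in WT DEN, 0.44, 0.69, 0.11 and 0.93 in WT DEN + PB, -0.52, -0.15, -0.45 and 0.042 in KO DEN, and -0.58, -1.33, -1.09 and -0.75 in KO DEN + PB. KO DEN + PB lay below every other array, and the highest WT DEN array lay just above the lowest WT DEN + PB array. The effects were 0.74 ± 0.22 and -0.67 ± 0.22 (adjusted p = 0.218 and 0.161, limma), and a second probe gave 0.8 and -0.57.

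Map3k1, a kinase upstream of JNK, read 0.78, 1.21, 1.15 and 1.24 in WT DEN, 1.41, 1.65, 1.75 and 1.54 in WT DEN + PB, 1.15, 1.46, 1.16 and 1.1 in KO DEN, and 0.81, 0.41, 1.03 and 0.5 in KO DEN + PB. The groups did not overlap within either genotype, and the effects were 0.49 ± 0.16 and -0.53 ± 0.16 (adjusted p = 0.332 and 0.13, limma). Mycbpap and Klhl4 were the other 2 of the 4 in this direction whose larger p was smallest. Klhl4 was above background on 3 WT DEN and 4 WT DEN + PB arrays and on no KO array, and Mycbpap on no KO DEN + PB array. Among the genes of the reverse direction, Klf1 gave -0.53 ± 0.2 in WT and 0.74 ± 0.2 in KO, and Ranbp3l gave -0.67 ± 0.24 and 0.8 ± 0.24. Rbm48 gave -0.33 and 0.37, with interaction p of 0.439 and 0.12 on its other probes. Ppara, the nuclear receptor of fatty acid oxidation, gave -0.47 ± 0.18 and 0.39 ± 0.18 (adjusted p = 0.474 and 0.399).

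The biliary and progenitor genes, which mark bile duct cells and the immature cells of injured liver, had the largest median interaction of the 32 lists. Of 24 genes 20 were tested, and the median effect was 0.63 in WT and -0.13 in KO. The interaction was positive in 19 of 20 (95%, against 44% of all genes), with an unadjusted p under 0.05 and a positive sign in 8 (40%, against 4.14%). In WT, Krt19 and Krt7 rose, and in KO Krt23 rose and Pkhd1 fell. Krt7, the keratin that pairs with Krt19 in duct cells, read -2.46, -2.17, -1.58 and -1.89 in WT DEN and -1.33, -0.9, -0.65 and -0.61 in WT DEN + PB, against -1.81, -1.51, -2.21 and -1.67 in KO DEN and -1.88, -2.4, -1.72 and -1.71 in KO DEN + PB. The 4 WT DEN + PB arrays were the highest of the 16. The effect was 1.16 ± 0.23 (adjusted p = 0.022, limma) in WT and -0.13 ± 0.23 in KO. A second probe of Krt7 gave 0.64 in WT (adjusted p = 0.608, limma) and -0.26 in KO. The interaction of the first probe was 1.29 ± 0.32, and 0.61 after normexp.

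Pkhd1, a protein of primary cilia in ducts, fell in KO (-0.81 ± 0.18, adjusted p = 0.0257, limma) with 0.4 ± 0.18 in WT, and its second probe had the same signs. Further members with an unadjusted interaction p under 0.05, named after their values were seen, were Cldn7 (1 ± 0.28), Cd24a (1.09 ± 0.37), Tspan8 (1.13 ± 0.39), Sox4 (1.35 ± 0.53) and Spp1 (1.29 ± 0.51). The list's median level per array, each gene centred on its mean over the 16 arrays, ran from -0.27 to 0.01 in WT DEN, 0.24 to 0.81 in WT DEN + PB, -0.38 to 0.29 in KO DEN and -0.44 to -0.1 in KO DEN + PB. WT DEN + PB overlapped KO DEN by 1 array and no other group. Between KO and WT under DEN + PB, 8 members were called, all lower in KO, where 7.61% of all genes were called and 5.85% were lower in KO. Under DEN alone 2 members were called, 0 of them higher in KO, with a median difference KO minus WT of 0.22. The list's summed linear signal, which its brightest genes dominate, was 200 to 244 times the 75th percentile in WT DEN, 225 to 301 in WT DEN + PB, 223 to 317 in KO DEN and 224 to 305 in KO DEN + PB. These ranges overlapped, and the part of bile duct cell number in the result was not tested. The median interaction was 0.82 after quantile normalization, 1.3 in the series table and 0.35 after normexp, and it ran from 0.67 without WT DEN 1 to 1.03 without WT DEN 3.

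Collagen, matrix and stellate cell genes, which make the scar of injured liver, also had a positive interaction. Of 32 genes 31 were tested, the median effect was 0.22 in WT and -0.16 in KO, and 27 had a positive interaction, 10 of them (32.3%, against 4.14% of all genes) with an unadjusted p under 0.05. No member was called with PB in WT or KO by limma. Under DEN + PB, 14 members (45.2%, against 5.85% of all genes) were lower in KO and 0 were higher. Under DEN alone, 2 were called and 0 of them were higher in KO. The median difference KO minus WT was -0.13 under DEN and -0.75 under DEN + PB. Col1a1, the main collagen chain of scar, gave 1.02 ± 0.28 in WT (adjusted p = 0.162) and -0.057 ± 0.28 in KO. Its interaction of 1.08 ± 0.4 was 1.6 on a second probe. Col5a2 gave an interaction of 1.26 ± 0.35 and Fbn1, the microfibril protein, 0.91 ± 0.27. After normexp the interaction was 0.72 for Col1a1, 0.24 for Col5a2 and 0.21 for Fbn1, and a second probe of Fbn1 gave 0.55 (unadjusted p = 0.159, limma). The summed signal of the list was 142 to 169 in WT DEN, 152 to 173 in WT DEN + PB, 126 to 156 in KO DEN and 104 to 128 in KO DEN + PB, times the 75th percentile.

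Leukocyte and Kupffer cell genes had a median interaction of 0.36 over 33 of 35 genes tested, with 7 positive (21.2%, against 4.14% of all genes) and 1 negative (3.03%, against 2.48%) at an unadjusted p under 0.05. In KO, 3 members fell (0.872% of all genes did) and 0 rose, and in WT none was called by limma. S100a9, a calcium-binding protein of neutrophils, read 1.86, 1.82, 2.89 and 1.66 in WT DEN, 2.19, 1.87, 2.03 and 1.74 in WT DEN + PB, 2.36, 2.84, 2.22 and 1.94 in KO DEN, and 1.26, 0.65, 1.32 and 0.45 in KO DEN + PB. KO DEN + PB lay below all other arrays. It fell in KO (-1.42 ± 0.27, adjusted p = 0.011), as did its partner S100a8 (-1.3 ± 0.31, adjusted p = 0.0407). Ms4a1, the B cell antigen CD20, fell in KO (-1.42 ± 0.26, adjusted p = 0.00926), with 0.11 ± 0.26 in WT, and Fcrla, another B cell gene, fell in KO by 1.31 on the log2 scale (-1.31 ± 0.23). The interaction of Fcrla was 1.59 ± 0.33, without WT DEN 3 it was 1.87 and called, and after normexp it was 0.28. Between genotypes under DEN + PB, 18 members (54.5%, against 5.85%) were lower in KO and 0 were higher. Under DEN alone, 7 of the 33 members were called already, 0 of them higher in KO, where 2.76% of all genes were called. The median difference KO minus WT was -0.34 under DEN and -0.7 under DEN + PB. The summed signal was 95 to 281 in WT DEN, 119 to 140 in WT DEN + PB, 73 to 96 in KO DEN and 57.5 to 92.7 in KO DEN + PB.

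Endothelial cell genes had a median interaction of 0.27, with 24 of 27 members positive and 1 (3.7%, against 4.14% of all genes) with an unadjusted p under 0.05, Vwf at 0.75 ± 0.28. Their summed signal was 133 to 163 in WT DEN, 126 to 166 in WT DEN + PB, 90.5 to 144 in KO DEN and 86.4 to 99 in KO DEN + PB. Their median difference KO minus WT was -0.33 under DEN and -0.61 under DEN + PB. Hepatocyte genes had a median interaction of -0.26, with 3 of 25 positive, and a summed signal of 4980 to 6590, 4520 to 5580, 5500 to 7040 and 5720 to 7280 in the same order. After quantile normalization the hepatocyte median was -0.0056. The part of cell composition in these list values was not tested.

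**Figure D4:**
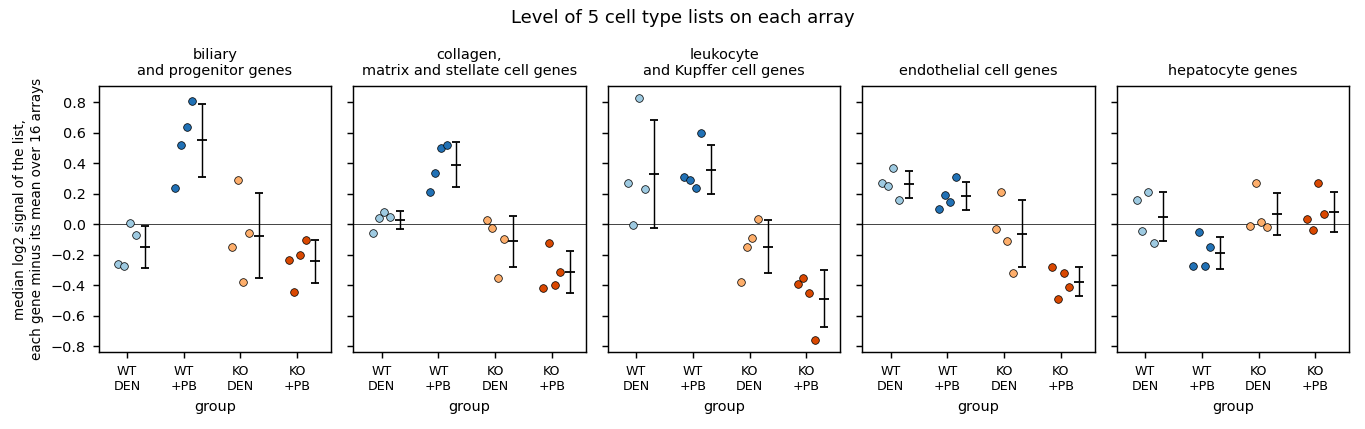
Median log2 level of 5 cell type lists on each array, each gene minus its mean over the 16 arrays (vertical axis), by group (4 arrays each), with the group mean and SD as bars. On average WT DEN + PB is highest for biliary and for collagen genes, and KO DEN + PB is lowest for collagen, leukocyte and endothelial genes.

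The transforming growth factor beta (TGF-beta), activin and BMP pathway controls growth arrest and scarring in liver. Of 49 genes 45 were tested, 34 had a positive interaction, and 8 had an unadjusted p under 0.05 with the positive sign (17.8%, against 4.14%) and 1 with the negative sign (2.22%, against 2.48%). The median interaction was 0.22, and it ran from 0.14 to 0.61 over the settings with all 16 arrays. Among ligands, Inhba, the activin A subunit, fell in KO (-0.99 ± 0.24, adjusted p = 0.0463, limma) from 2.51, 2.67, 1.78 and 2.26 to 1.09, 1.64, 1.35 and 1.19, with 0.16 ± 0.24 in WT. All 4 KO DEN arrays lay above every other array. Tgfb3 gave 0.66 ± 0.18 in WT (adjusted p = 0.159) and -0.2 ± 0.18 in KO, and Gdf15 rose in both, by 1.42 ± 0.24 and 1.16 ± 0.24.

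Ltbp3, which binds latent TGF-beta in the matrix, rose in WT from -1.74, -1.73, -1.74 and -1.4 to -1.02, -1.12, -1.06 and -0.82 (0.65 ± 0.14, adjusted p = 0.0335, limma) with -0.036 ± 0.14 in KO. The WT groups did not overlap, and a dimmer second probe of Ltbp3 gave 0.46 and 0.49. The receptor Tgfbr2 gave 0.65 ± 0.15 in WT and 0.56 ± 0.15 in KO, an interaction of 0.097 with a 95% interval of -0.34 to 0.53. Of the inhibitors, Bambi (-0.77 ± 0.16) and Skil (-0.92 ± 0.2) fell in KO, with -0.11 for each in WT. Fndc5 rose by 1.87 ± 0.24 in WT and 1.29 ± 0.24 in KO, an interaction of 0.57 with an interval of -0.14 to 1.29. A second probe of Fndc5 gave 1.99 and 1.3, an interaction of 0.69 (unadjusted p = 0.0495, limma). For the first probe the interaction was 0.34 after normexp. Its difference KO minus WT was -0.36 without PB (adjusted p = 0.413, limma) and -0.94 with PB (adjusted p = 0.0253), the latter called.

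The p38 and JNK kinase cascade, which Gadd45b regulates, had a median interaction of 0.0037 over 27 of 28 genes tested. Unadjusted p was under 0.05 in 2 members with the positive sign, Map3k1 and the phosphatase Dusp10, and in 1 with the negative sign, Map3k5 (-0.21 in WT and 0.57 in KO). These were 7.41% and 3.7% of the members, against 4.14% and 2.48% of all genes, which does not set the list apart. Cell cycle genes had a median of 0.29 over 29 of 40 genes tested, which was 0.0082 without KO DEN 4. There, 1 member had an unadjusted p under 0.05, with the positive sign (3.45%, against 4.14% of all genes).

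The ER stress and amino acid response list held members with large interactions of both signs, 5 positive (17.2%, against 4.14% of all genes) and 4 negative (13.8%, against 2.48%) at an unadjusted p under 0.05 among 29 genes tested. Trib3, a pseudokinase induced by this response, read 2.58, 1.81, 2.52 and 2.05 in WT DEN, 2.84, 3.26, 2.97 and 3.5 in WT DEN + PB, 0.49, 1.24, 0.98 and 0.032 in KO DEN, and 2.51, 2.97, 3.17 and 2.64 in KO DEN + PB. KO DEN was below all other arrays, and Trib3 rose in KO by 2.14 ± 0.26 (adjusted p = 0.000187, limma) with 0.9 ± 0.26 in WT (adjusted p = 0.196). The chaperone genes Dnajb9 and Manf and the ER degradation gene Herpud1 had negative interactions, and Dnajb9 rose in KO (1.22 ± 0.29, adjusted p = 0.0389). The enzymes of serine and one-carbon synthesis had positive ones: Psat1 gave 1.05 ± 0.43 in WT and -1.03 ± 0.43 in KO, Phgdh 0.65 ± 0.49 and -1.08 ± 0.49, and Mthfd2 0.45 ± 0.39 and -0.97 ± 0.39, none of them called. On the 4 WT DEN + PB arrays Psat1 read -3.35, -1.4, -1.52 and -2.92, so its level there was uneven between mice. The interaction of Psat1 was 2.07 ± 0.61, and 0.48 after normexp. Dnajb9, Manf, Phgdh and Mthfd2 were named after their values were seen.

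Hepcidin genes encode the liver hormone that limits iron uptake. Hamp read 7.6, 7.5, 7.54 and 6.97 in WT DEN, 5.7, 3.77, 5.6 and 5.96 in WT DEN + PB, 7.61, 7.56, 7.39 and 6.6 in KO DEN, and 7.14, 7.76, 7.2 and 6.56 in KO DEN + PB. All 4 WT DEN + PB arrays lay below the other 12, and Hamp fell in WT (-2.15 ± 0.39, adjusted p = 0.0124, limma) with -0.13 ± 0.39 in KO, an interaction of -2.02 ± 0.56 (adjusted p = 0.415). Hamp2 rose in KO (2.19 ± 0.51, adjusted p = 0.0369) with -0.7 ± 0.51 in WT. The probes of this pair may share signal. Id1, a target of the BMP pathway, gave -1.53 ± 0.42 in WT (adjusted p = 0.165) and -0.2 ± 0.42 in KO.

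In lipid metabolism, Scd2, a fatty acid desaturase, gave 0.63 ± 0.2 in WT and -0.54 ± 0.2 in KO, and Gpam, the first enzyme of triglyceride synthesis, had an interaction of 1.17 ± 0.3. The fatty acid synthesis list had a positive interaction in 19 of 24 members. Lpin1 of that list went the other way (-1.48 ± 0.56), with the same sign on its 2 other probes. Cpt1a, of the fatty acid oxidation list, had an interaction of -0.74 ± 0.25. Pdk4, the kinase that spares glucose, fell in KO (-1.33 ± 0.3, adjusted p = 0.029, limma) with -0.079 ± 0.3 in WT, and Cyp39a1, an enzyme of bile acid synthesis, fell in KO (-1.12 ± 0.26, adjusted p = 0.0356) with 0.42 ± 0.26 in WT and the same signs on a second probe. The lists of fatty acid oxidation (20% of 30 members positive, median -0.27) and bile acid genes (18.2% of 22, median -0.28) leaned the other way. Over all genes 44% were positive. After quantile normalization the medians of these lists were -0.077 and -0.13. Golm1, a Golgi protein raised in liver cancer, fell in KO (-1.04 ± 0.2, adjusted p = 0.0109) with 0.0013 in WT, and all 4 KO DEN + PB arrays, at -1.33, -1.31, -1.35 and -1.44, lay below the other 12.

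Over the 32 lists, 9 kept the sign of their median interaction under all settings, and these 9 were positive: biliary (0.9), fetal liver and liver tumour (0.47), collagen (0.44), leukocyte (0.36), cell cycle (0.29), endothelial (0.27), TGF-beta (0.22), cholesterol synthesis (0.18) and fatty acid synthesis (0.16). The lists with negative medians all turned positive in the series table without scaling, where the median of all genes was 0.35 in place of -0.044, so no negative list median lay below 0 under every scaling. As that setting turned all 19 negative lists, positive lists alone could keep their sign, and the shared direction of the 9 is no result. Cell cycle was 0.0082 without KO DEN 4, and cholesterol synthesis was 0.038 and fatty acid synthesis 0.046 without WT DEN 3. The main scaling also left a trend with brightness. With genes in 5 bins of equal size, the median interaction was 0.11 in the dimmest bin and -0.16 in the brightest, and 0.049 and -0.011 after quantile normalization. Lists of bright genes followed it: respiratory chain genes had a positive interaction in 0 of 32 members with a median of -0.25, which was -0.05 after quantile normalization, and ribosomal protein genes went from -0.18 to 0.035.

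**Figure D5:**
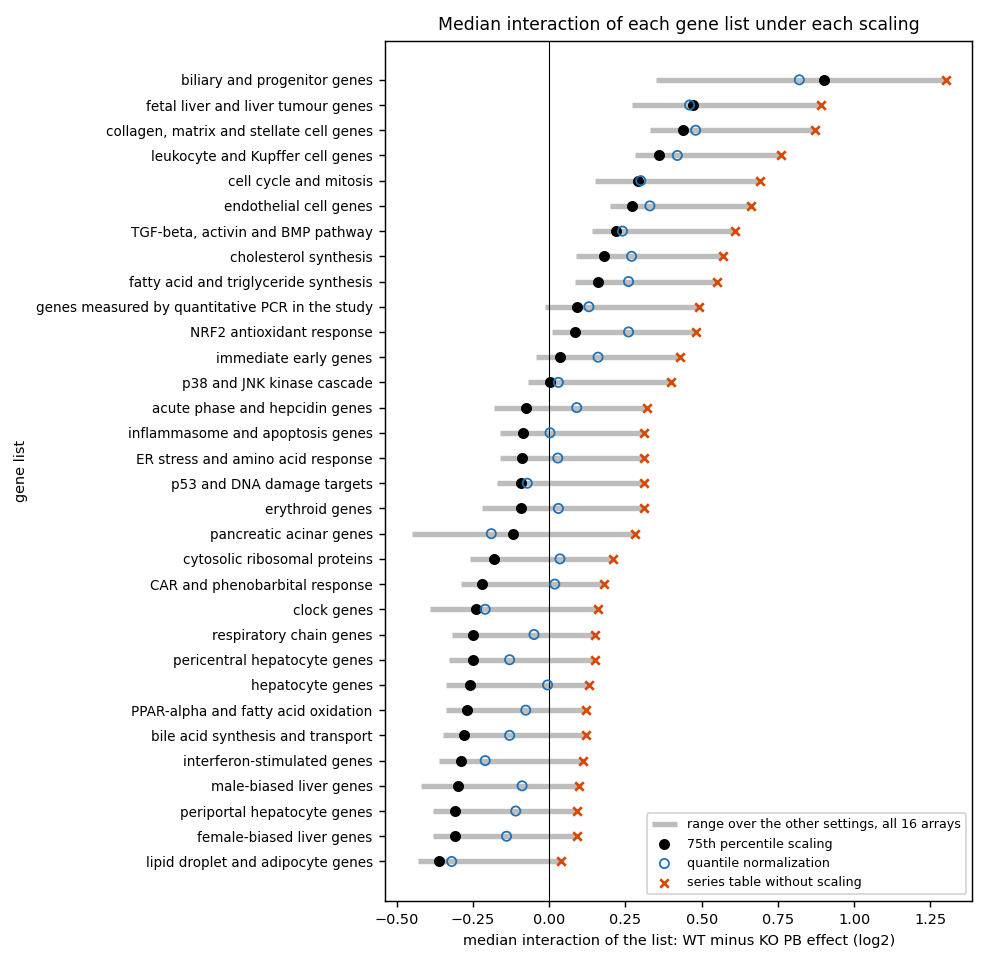
Median interaction (horizontal axis, WT minus KO PB effect, log2) of each of the 32 gene lists under 75th percentile scaling (filled points), quantile normalization (open points) and the series table without scaling (crosses), with grey bars for the range over all settings that kept the 16 arrays. The biliary list lies highest at 0.9, and every list with a negative filled point has its cross above 0.

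The 2 called probes had no gene name here. A_52_P134621 was well above background on the 4 WT DEN arrays, at -4.51, -2.22, -3.77 and -3.37, and on none of the other 12. It was at least 4.17-fold lower in WT after PB, with an adjusted interaction p of 0.00281 (limma). Both KO groups were below background, so no KO effect was measured against which the WT effect could differ. A_52_P259497 read -5.46, -4.78, -5.71 and -5.39 in WT DEN, -2.35, -2.3, -3.46 and -1.99 in WT DEN + PB, -3.75, -1.5, -2.9 and -2.44 in KO DEN, and -5.04, -4.49, -3.88 and -3.84 in KO DEN + PB. WT DEN + PB and KO DEN overlapped, and both lay above the other 2 groups. Its effect was 2.81 ± 0.42 in WT (adjusted p = 0.00186) and -1.66 ± 0.42 in KO (adjusted p = 0.0566), with an adjusted interaction p of 0.0133 and only 1 WT DEN array above background. The call was lost without WT DEN + PB 1 (4.42), WT DEN + PB 2 (4.4), KO DEN 4 (4.41) or KO DEN + PB 2 (4.42).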

How the data were processed

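Liver RNA of 16 male mice was measured on 16 Agilent arrays of 1 colour. Per the labels the authors' software was Agilent Feature Extraction 12, and its deposited processed signals are linear intensity values with background and within-array trends removed, not yet scaled to each other. A series table deposited by the authors holds intensity columns that match those signals unscaled, so a run on it keeps differences in overall array brightness. The normalization behind the study's own test is not given in the sources used here.

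Spots marked as outliers (71 to 122 of 43379 per array) were left out, spots of a probe were averaged, and log2 signals were centred on the array's 75th percentile (136.9 to 294.3 in linear units). Probes were named by accession through a RefSeq table of GRCm38.p6, which matched 28223 of 41174 probes (68.5%) to 19096 genes, and 12951 kept their probe name. No coordinates of the array are given.

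Models with 4 group means were fitted over all arrays with limma 3.58.1 in R 4.3.3 (lmFit, eBayes), with contrasts for PB in WT, PB in KO, their difference, and KO minus WT under each treatment, and p was adjusted over all probes tested. Where all 4 arrays of a group fell short of the background flag, only a bound is given. Simulated data with 200 changed among 24454 probes were used to test the fit, which made 11 false calls. Figures were drawn with matplotlib 3.10.9 in Python 3.11.15.

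Named genes were the 10 with the smallest interaction p each way among genes above background on 16 arrays, the 3 each way among the others, 4 opposed genes and up to 4 unequal genes each way, 3 members of each list, the called probes, and Gadd45b with the genes the study measured by quantitative PCR. 1 gene picked by this rule is not reported here. Other list members named were chosen after their values were seen. The members and lists were chosen with earlier results of these data known.

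The arrays lay on 4 slides. Slides 1 and 3 held all 4 groups with 1 array each, while KO DEN was missing from slide 2 and WT DEN from slide 4. The alternatives were quantile normalization, the array median as the scale, the series table, normexp background correction, other filters, slide or replicate number as a block, no moderation, trended and robust moderation, array weights, and leaving out each array. The normexp correction was planned on mean spot signals and was run on median spot signals (offset 50), which the files used here hold. Replicate numbers were not used as pairs: the deviations of same-numbered arrays correlated at -0.213 to 0.356 (median 0.0143), and 4 of 16 arrays correlated best with their own number.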

Additional observations from a re-analysis of the deposited data

Results flagged for a closer look

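The interaction passed its test for probes A_52_P134621 (adjusted p = 0.00281, limma) and A_52_P259497 (adjusted p = 0.0133). The first was above background in WT DEN alone, so no effect in KO could be measured for it. Their levels on each array are given above. After normexp background correction neither was called, with interactions of -0.38 and 0.95.

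In 34 of 463 groups of 4 arrays (7.34%) of the named genes, 1 array stood apart from the other 3 by its gap relative to the group's range, where chance gives about 1 in 20. The values are log2 levels relative to the array's 75th percentile. Among genes described above, these were Krt19 on WT DEN + PB 1 (-1.96) and KO DEN + PB 4 (-2.44), Rnf144a on WT DEN + PB 2 (-1.95), Mycbpap on KO DEN 1 (-5.03), Fcrla on KO DEN 4 (-3.41), Map3k1 on KO DEN 2 (1.46), Cbr3 on WT DEN + PB 4 (6.1), Crybg2 on KO DEN + PB 3 (-0.93), Gpcpd1 on KO DEN 4 (0.45), Ranbp3l on WT DEN 1 (-2.77) and Rbm48 on WT DEN 3 (-0.95). Akr1b7 stood apart on WT DEN + PB 1 (-1.26), Slco1a4 on WT DEN 3 (0.00072), Ltbp3 on WT DEN 4 (-1.4), Col5a2 on WT DEN + PB 4 (-2.78), Ms4a1 on WT DEN + PB 2 (-1.08), S100a9 on WT DEN 3 (2.89), Vwf on WT DEN 2 (-0.026), Lonrf3 on WT DEN + PB 3 (-1.91) and Hamp on WT DEN 4 (6.97) and WT DEN + PB 2 (3.77).

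The same held for Ddit4l on WT DEN + PB 4 (-0.23), Susd4 on WT DEN 2 (3.24), Cfd on KO DEN + PB 2 (-0.26), Cpt1a on KO DEN + PB 4 (4.94), Bid on WT DEN + PB 3 (0.79), Sp5 on WT DEN 2 (0.39) and KO DEN 1 (-0.094), Znrf3 on WT DEN 2 (-1.03), Cdh1 on WT DEN 1 (0.74) and KO DEN 3 (-1.68), Ctrb1 on WT DEN 2 (-3.18), Slc4a1 on KO DEN 2 (-3.96) and Casp1 on WT DEN 3 (0.77).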

How the results depend on the processing

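Of the 126 named genes and probes, 119 kept the sign of their interaction under all 28 settings, and 104 had it on both slides with all 4 groups, which is no independent support, since most were chosen by their p on these arrays. After normexp, 70 of the 126 were smaller by over 1.5 times. The number of genes called for the interaction was 1 in the series table (Slpi), 2 after normexp with or without outlying backgrounds (Akr1b7 and Sult1e1), 4 with array weights (Cldn6, Crybg2, Fcrla and Serpinb1c) and 0 to 4 with 1 array left out. Called probes numbered 1 after quantile normalization, 4 in the series table, 1 without the filter on dim probes, 0 with probes above background on all arrays or without moderation, 9 with array weights and 1 to 6 with 1 array left out. The PB effect in WT was called in 61 genes in the series table, in 202 with array weights and in 69 to 105 with 1 array left out. In KO the counts were 147 in the series table, 160 without the filter and 179 (without KO DEN 1) to 322, against 283. Opposed genes numbered 53 in the series table, 53 with slide as a block, 81 with array weights and 22 to 63 with 1 array left out. Those higher in WT and lower in KO numbered 17 with the array median, 53 in the series table, 17 with probes above background on all arrays, 54 with array weights and 19 to 58 with 1 array left out. Unequal genes numbered 3 after normexp with or without outlying backgrounds, a setting chosen after seeing the data, 4 with probes above background on all arrays and 7 to 11 with 1 array left out. The cause of these differences was not tested.

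With the replicate block, 0 genes and 2 probes were called for the interaction, 101 genes in WT and 264 in KO, with 34 opposed and 10 unequal genes, so the block moved no count by over 1.5 times.

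Small interactions turned. In the series table these were Rpl19 (0.087), Rpl32 (0.025), Uqcrc1 (0.021) and Uqcrc2 (0.031). Casp1 was -0.014 with slide as a block and, with 1 array left out, -0.022 (without WT DEN + PB 3) to 0.27. Cyp2b10 was 0.024 after quantile normalization, 0.29 in the series table, 0.13 after normexp, 0.1 after normexp without outlying backgrounds, 0.029 with array weights, and -0.62 to 0.46 with 1 array left out (0.44, 0.035, 0.46 and 0.078 without WT DEN 1, WT DEN + PB 4, KO DEN 2 and KO DEN + PB 1). Cyp2b13 was 0.0094 after normexp and -0.84 to 0.12 with 1 array left out (0.12 without WT DEN 1 and 0.0057 without KO DEN 2).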

Other observations

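Immediate early genes respond within minutes to stress and growth signals. Of 27 tested, 14 had a positive interaction, with a median of 0.034, and at an unadjusted p under 0.05 there were 3 positive (11.1%, against 4.14% of all genes) and 4 negative (14.8%, against 2.48%). Fos gave 0.46 ± 0.27 in WT and -0.71 ± 0.27 in KO, and Fosl2 fell in KO (-0.76 ± 0.17, adjusted p = 0.0348, limma) with 0.00033 in WT. After normexp the interaction was 0.22 for Fos, against 1.16, and 0.24 for Fosl2, against 0.76. Junb gave -0.35 ± 0.27 in WT and 0.68 ± 0.27 in KO, and Maff (1.39 ± 0.33) and Zfp36 (0.68 ± 0.16) rose in KO with 0.27 and 0.083 in WT. Maff read -0.72, -0.61, -1.2 and -0.89 in KO DEN, below the 8 WT arrays. These 2 genes were named after their values were seen.

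Adipocyte and lipid droplet genes had a negative interaction in 18 of 19 tested, with a median of -0.36, which was -0.32 after quantile normalization and 0.037 in the series table. Cfd, the adipocyte protease adipsin, read 4.73, 3.53, 5.84 and 4.67 in WT DEN, 2.52, 2.57, 2.14 and 2.83 in WT DEN + PB, 1.67, -0.11, 1.73 and 2.79 in KO DEN, and 1.31, -0.26, 1.47 and 1.24 in KO DEN + PB. WT DEN lay above all other arrays, and the effect was -2.17 ± 0.54 in WT (adjusted p = 0.106, limma) and -0.58 ± 0.54 in KO. The fat cell markers Adipoq and Plin1 were not tested, being too close to background. Retn (-1.39 ± 0.6) and Lipe (-0.62 ± 0.28) were tested. Retn was above background on no KO DEN array, and its interaction was -0.046 after normexp. A second probe of Lipe gave -0.38. The list's summed signal was 286 to 616 times the 75th percentile in WT DEN, 279 to 533 in WT DEN + PB, 256 to 361 in KO DEN and 226 to 325 in KO DEN + PB. The part of fat cells or lipid storage in these values was not tested.

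Interferon-stimulated genes had a negative interaction in 26 of 32 tested. The interaction was positive in 18.8% of members, against 44% of all genes. At an unadjusted p under 0.05 there was 1 negative member (3.12%, against 2.48% of all genes), which does not set the list apart. The median of -0.29 was -0.21 after quantile normalization and 0.11 in the series table. Oasl1 rose in KO by 1.41 ± 0.3 (adjusted p = 0.0208, limma) with 0.65 ± 0.3 in WT, and it read -0.52, -0.28, 0.43 and -0.24 in KO DEN, below every other array. Pnliprp1, a lipase of the pancreas, was above background on 0 of 8 arrays under DEN and 8 of 8 under DEN + PB, and was at least 11.2-fold higher after PB in WT and at least 27.7-fold higher in KO. Of 29 pancreatic acinar genes 10 were tested, and Pnlip, Cpa1 and Prss2 were too close to background for it. Ctrb1 and Amy2a5 were above background on all 16 arrays. Ctrb1 gave -0.11 ± 0.17 in WT and 0.45 ± 0.17 in KO, and Amy2a5 gave 0.021 ± 0.24 and 0.48 ± 0.24, none of them called. The median interaction of the list was -0.12.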
